A study of Mus musculus with 30 samples.

Results

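Expression of genes on chromosomes 1 to 19 was compared between XO and XX mouse embryonic stem cells (mESCs), that is, between cells with a lone X chromosome and cells with an X pair. The deposited table held 55421 genes, of which 50970 lay on chromosomes 1 to 19 and 29972 of those had at least 1 count in the 8 libraries compared. Genes on chromosome 12 (2468) and at the distal end of chromosome 5 (541), where the first expressed gene is Abhd11 (chr5:135009152-135012175, build mm10), were described apart because whole stretches there shifted in level and allele share among these libraries, which left 47961 genes as the autosomal set. Of these, 14923 reached 10 counts in 4 or more of the 8 libraries and were tested, and 12561 of the tested genes were protein-coding, 1572 were pseudogenes and 790 were of other types.

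All cells were female hybrids of 129/Sv (here Mus) and Cast/Ei mice, the F1 2-1 line and its derivatives, grown on feeder fibroblasts in serum with leukemia inhibitory factor (LIF) and depleted of feeders by pre-plating before RNA was extracted. The 4 XX libraries comprised 2 of wild type cells and 2 of an Rnf12+/- line, which lacks Rnf12 (Rlim, an X-linked ubiquitin ligase) on its Mus X. The 4 XO libraries comprised 2 of XCastO129, which keeps the Cast X, and 2 of X129OCast, which keeps the Mus X with the Rnf12 deletion. The XO cells lost a whole X during targeting with Cas9, so XO status cannot be told apart from what else these cells acquired. The 4 XO libraries were sequenced as single 50-base reads on a NextSeq2000 and all others as paired 50-base reads on a HiSeq2500, so read type, sequencer and sequencing batch cannot be told apart from XO status either. The study describes its bulk RNA replicates as independent clones, the labels give a replicate number alone, and p-values measure the spread between these libraries. As a further reference, 22 paired-read libraries of XX lines with a heterozygous deletion of an X segment in Rnf12+/- cells were available, which makes 26 paired-read libraries with the 4 XX ones.

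As background, female mESCs keep both X chromosomes active until they differentiate and easily lose an X in culture. XX mESCs are known for lower DNA methylation than XO or XY cells and for a slower exit from the naive state, the ground state of pluripotency that resembles the cells of the early epiblast. X-linked modulators of mitogen-activated protein kinase (MAPK) signalling are known to contribute to both properties.

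The levels of Rlim and of the X matched the labels. Rlim stood at 198, 184, 74 and 76.6 TPM in the XX libraries and at 73.4, 79.2, 3.78 and 3.78 TPM in the XO libraries, always listed in the order wild type 1 and 2, Rnf12+/- 1 and 2, XCastO129 1 and 2, X129OCast 1 and 2. TPM here is counts per kilobase of exon, scaled by normalised library size so that the mean total of the 8 libraries equals 1000000. X-linked genes took 4.91 to 5.25% of counts in XX and 2.71 to 2.93% in XO libraries, and the Mus share of allele-resolved X counts was 51.9 to 55.4% in XX, 7.11 and 7.63% in XCastO129 and 98.4 and 98.5% in X129OCast. Depth was 20403739 to 20914826 counts in XX and 14998265 to 16494893 in XO libraries. Markers of feeder fibroblasts, none of 26 at 0 in any library, summed to 2490.0, 1123, 3079.8 and 1053 TPM in XX and to 1133, 1791, 1086 and 1365 TPM in XO libraries, so that replicate 1 of both XX genotypes stood highest, and the part of feeder RNA in the results was not tested. In these bulk samples a lower share of a cell type and less RNA per cell cannot be told apart.

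Autosomal expression differed widely between the genotypes. Of the 14923 genes tested, 3152 were higher (21.1%) and 3166 lower (21.2%) in XO cells at an adjusted p under 0.05 in edgeR's quasi-likelihood test with Benjamini-Hochberg adjustment over all genes tested, X-linked ones included. Among protein-coding genes 2387 of 12561 were higher (19.0%) and 2624 lower (20.9%), and beyond a 2-fold change 404 were higher (3.22%) and 791 lower (6.30%). The first principal component, 67% of the variance, separated the 4 XO from the 4 XX libraries. Most changes were modest. The median size of a called change was 0.57 on the log2 scale for rises (quartiles 0.4 and 0.85) and 0.71 for falls (quartiles 0.47 and 1.1), and the median of all protein-coding genes was -0.03. Within the called genes, the XO libraries did not overlap the XX libraries for 2005 of the 2387 rises and 2226 of the 2624 falls. The calls came from the same libraries, so these counts describe the calls and lend them no support. The share without overlap over all genes tested was not counted.

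The 2 XO lines were also described apart. In the called rises the median change was 0.48 in XCastO129 and 0.62 in X129OCast, and in the called falls it was -0.62 and -0.82. The calls pooled both lines, so these medians lend no separate support. With XCastO129 alone 1212 of the 2387 rises and 1319 of the 2624 falls were called, and with X129OCast alone 2088 and 2234. Tested against each other, with 2 libraries a genotype, X129OCast was higher than XCastO129 for 17 protein-coding genes (0.135%) and lower for 23 (0.183%). A second reference was the 20 deletion libraries that remain without deletion E. These 20 held 8816184 to 10680026 counts each, and the deletion E libraries, nearer the XX depth, held 20375194 and 21181405. The labels give no batch for any of them. Against the 20 libraries, 2655 protein-coding genes were higher in XO (21.1%) and 2932 lower (23.3%). The 4 XX libraries themselves differed from those 20 libraries for 2465 genes (19.6%), both sets being XX cells read as pairs. For 689 genes (5.49%) all XO libraries exceeded all 26 paired-read libraries, and for 510 genes (4.06%) all XO libraries fell below them. These comparisons share libraries, so they are given side by side and are not independent of each other.

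Outside the segments set apart, the chromosomes stayed near the XX level. The median change of the 18 other chromosomes or chromosome parts ranged from -0.17 to 0.14 in the XO libraries, and the Mus share of their allele-resolved counts was 45.8 to 56.5% over all 8 libraries. The distal end of chromosome 5 differed: 142 of 217 genes tested there were higher in XO (65.4%) and 4 lower (1.84%), with a median change of 0.89. The 4 XO libraries were unlike in this segment. Its median level against XX was 1.07 in XCastO129 1, 0.03 in XCastO129 2, and 1.16 and 1.17 in X129OCast, with Mus shares of 26.2, 50.9, 25.6 and 26.1%. XCastO129 2 thus lacked the gain that the other XCastO129 library showed. The shift set in before Abhd11, since over the 1 Mb before it, from Castor2 (chr5:134099711-134144343) to Cldn3, the medians of 11 genes were 1.46, 0.19, 1.85 and 1.87 and the Mus shares 19.5, 52.7, 18.7 and 19.3%, against 52 to 55.1% in XX. From 130 Mb to Cldn3 13 of 25 protein-coding genes were higher, and these are counted in the autosomal set.

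**Figure D1:**
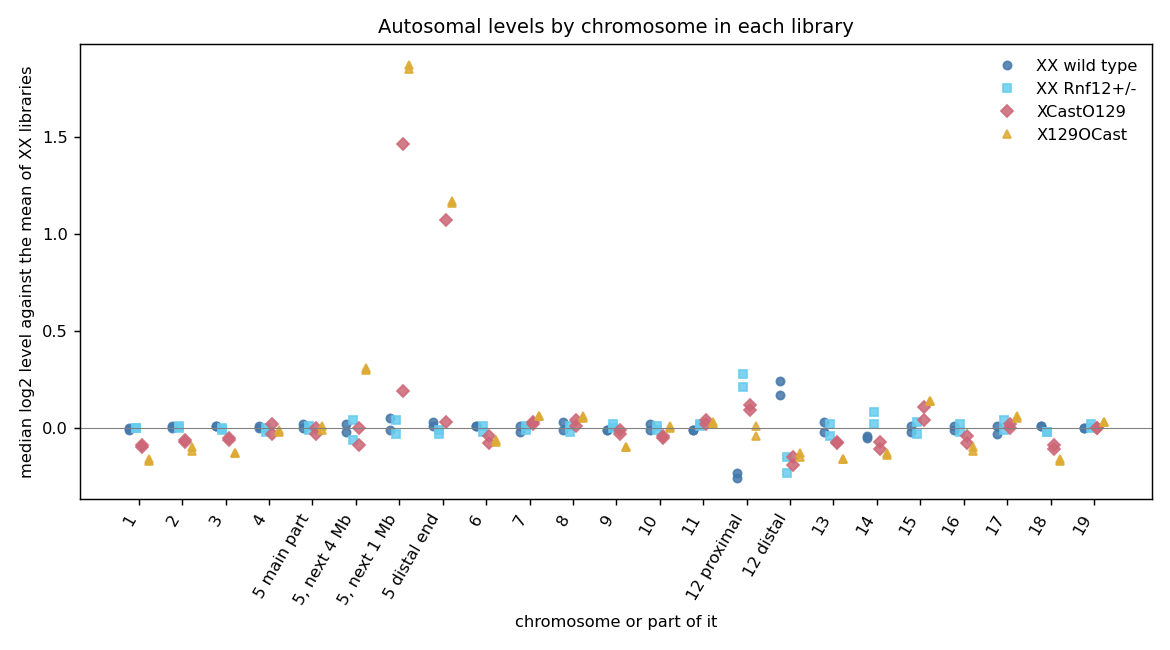
Median log2 level of expressed genes against the mean of the 4 XX libraries (vertical axis) for each chromosome, with chromosome 5 in 4 parts and chromosome 12 split into the parts up to 70 Mb and beyond 80 Mb (horizontal axis), with a point per library and a colour and shape per genotype. The distal end of chromosome 5, with the 1 Mb before it, is raised in 3 of 4 XO libraries, from 1.07 to 1.87, and XCastO129 2 stays at 0.03 to 0.19, while chromosome 12 sets the wild type XX libraries apart.

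Named genes of that segment followed the library pattern. Syntaxin Stx1a, a membrane fusion protein of synapses, stood at 5.94, 7.04, 6.72 and 8.1 TPM in XX and 42.5, 12.9, 54.4 and 55.9 TPM in XO (log2 change 2.57 ± 0.384, adjusted p = 4.9e-04). Mlxipl, which encodes the carbohydrate response factor ChREBP, stood at 4.25, 5.43, 3.69 and 3.42 TPM in XX and 19.3, 4.63, 26.2 and 26.2 TPM in XO (log2 change 2.18 ± 0.439, adjusted p = 0.00283). In both, XCastO129 2 was the lowest XO library, and for Mlxipl it lay within the XX range. Bhlha15, a transcription factor of secretory cells, changed by 2.27 ± 0.477 (adjusted p = 0.0035). Zfp655, a zinc finger gene, changed by -0.56 ± 0.164 (adjusted p = 0.0188), and that call was lost without XX wild type 1 or either X129OCast library (-0.53 to -0.5).

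On chromosome 12, 122 of 638 genes tested were higher in XO (19.1%) and 111 lower (17.4%), with a median of -0.04. Here the wild type XX libraries stood apart from all the others: their medians were -0.26 and -0.23 up to 70 Mb and 0.17 and 0.24 beyond 80 Mb, where their Mus share was 26.2 and 24.4% against 65.4 to 66.7% in the other 6 libraries. The leading change of a known regulator was in Dnmt3a, a de novo DNA methyltransferase, at 45.5, 33.2, 52.1 and 37.4 TPM in XX and 128, 104, 244 and 226 TPM in XO (log2 change 2.06 ± 0.267, adjusted p = 2.0e-04). All XO libraries were above all 26 paired-read libraries, and X129OCast was above XCastO129. Aldoart2, a retrogene of aldolase, changed by 2.31 ± 0.319 (adjusted p = 3.0e-04), and Gpx2, a glutathione peroxidase, by 1.8 ± 0.478 (adjusted p = 0.0121). Dio3, an imprinted gene whose product inactivates thyroid hormone, stood at 43.6, 31.2, 44.1 and 40.5 TPM in XX and 1.48, 9.39, 7.47 and 9 TPM in XO (log2 change -2.55 ± 0.401, adjusted p = 6.7e-04), with no overlap between the groups. Bdkrb2, a bradykinin receptor, changed by -2.71 ± 0.425 (adjusted p = 6.6e-04), and Flvcr2, a membrane transporter, by -2.12 ± 0.354 (adjusted p = 9.6e-04).

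Shared sequence moved with the direction of the calls. For each protein-coding gene the share of its 50-base exonic words, as long as a read, that also occur in another annotated gene was computed. Among 4928 genes with no shared word 15.9% were higher and 21.4% lower in XO, and among 4419 genes with a share over 0 and under 5% the figures were 19 and 21.2%. They were 21.3 and 20.9% at 5 to 25% shared words (2311 genes), 26.8 and 18.2% at 25 to 50% (598 genes), and 37.4 and 12.5% at 50% or more (305 genes). The share of genes higher in XO thus climbed with shared sequence while the share lower fell. Annotated pseudogenes had 625 rises and 435 falls among 1572 tested. A read of a gene with copies can be placed less surely from a single 50-base end than from a pair, and the part of read type in these differences was not tested. Restricted to the 9347 protein-coding genes with under 5% shared words, 1620 were higher (17.3%) and 1993 lower (21.3%). A greater total exon length per gene went with a higher share of rises, from 16.9% in the shortest to 22.1% in the longest of 4 equal classes. It also went with fewer falls, from 22.2 to 19.5%.

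**Figure D2:**
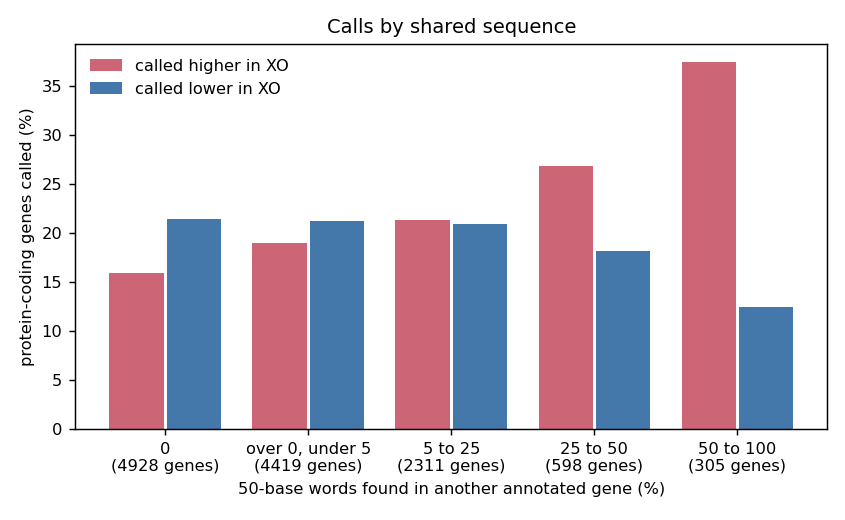
Share of protein-coding genes called higher or lower in XO (vertical axis, %) by the share of their 50-base words that also occur in another annotated gene (horizontal axis, %). Rises go from 15.9% of genes with no shared word to 37.4% of genes with 50% or more, and falls from 21.4 to 12.5%.

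Among the 12 largest rises 11 genes had at least 44.4% shared words, so their values are uncertain. Myl12b (ENSMUSG00000117098 on chromosome 17, a symbol that another gene also bears), a myosin light chain gene, had no count in any XX library and stood at 18, 19.8, 18.4 and 18.9 TPM in XO libraries, at least 48-fold higher than a floor of 3 counts per XX library. Rps12-ps3, annotated as protein-coding despite its pseudogene name, was at 0.311, 0, 0 and 0 TPM in XX, 1 count in all, and at 16.5, 28.7, 17.9 and 19.4 TPM in XO. Eno1b, a copy of the glycolytic enolase Eno1, stood at 11.4, 14.2, 12.8 and 14.8 TPM in XX and 247, 268, 322 and 310.3 TPM in XO (log2 change 4.42 ± 0.127, adjusted p = 5.9e-09). In all 3 the XO libraries lay above all 26 paired-read libraries. Rpl24, a protein of the large ribosomal subunit, stood at 17.9, 24.1, 22.5 and 21.3 TPM in XX and 304, 285, 289 and 268 TPM in XO (log2 change 3.73 ± 0.114, adjusted p = 8.9e-09). The ferritin copy Ftl1-ps1 stood at 34.7, 40.9, 37.7 and 40.7 TPM in XX and 394, 423, 443 and 427 TPM in XO (log2 change 3.45 ± 0.0886, adjusted p = 3.3e-09). These groups were also far apart. Nutf2-ps1, Rps27rt, Nme2, Bloc1s1, Olfr482 and Dynlt1c changed by 4.0, 3.55, 2.73, 2.56, 2.46 and 4.71 on the log2 scale, and Dynlt1c, a dynein light chain, was carried by XCastO129 1 at 16.7 TPM against 2.34 to 2.69 TPM in the other XO libraries. The 1 gene of the 12 without shared words, Rbbp8nl, stood at 0.796, 0.855, 0.739 and 0.743 TPM in XX and 0.924, 3.11, 8.08 and 9.49 TPM in XO (log2 change 2.76 ± 0.607, adjusted p = 0.00455), with XCastO129 1 close to the XX level.

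The 12 largest falls came from several gene families. Stk33, a protein kinase gene active in testis (chr7:109279223-109439081), stood at 16, 9.94, 4.4 and 2.77 TPM in XX and 0, 0, 0.159 and 0.176 TPM in XO (log2 change -6.52 ± 0.845, adjusted p = 2.0e-04), and reached 0 in both XCastO129 libraries. Phf11a, with 35.2% shared words, stood at 6.47, 6.2, 7.37 and 8.44 TPM in XX and 0.475, 0.156, 0.622 and 0.173 TPM in XO (log2 change -4.25 ± 0.384, adjusted p = 1.8e-05). Matn1, a cartilage matrix protein (chr4:130944385-130955475), stood at 5.84, 4.73, 4.21 and 6.73 TPM in XX and 0.321, 0.424, 0.421 and 0.585 TPM in XO (log2 change -3.6 ± 0.308, adjusted p = 1.3e-05). For these 3 every XO library was below all 26 paired-read libraries. Klb, the co-receptor beta-klotho for hormone-like fibroblast growth factors, stood at 8.35, 11.8, 4.11 and 7.78 TPM in XX and 0.848, 0.559, 0.556 and 0.772 TPM in XO (log2 change -3.55 ± 0.344, adjusted p = 3.0e-05), and Msln, the surface protein mesothelin, at 25.5, 24.5, 10.5 and 10.4 TPM in XX and 1.68, 1.38, 2.06 and 1.83 TPM in XO (log2 change -3.35 ± 0.361, adjusted p = 5.9e-05). Trpm1, a cation channel, changed by -3.32 ± 0.414 (adjusted p = 1.5e-04). These too lay below all 26. Pramel7, a PRAME-like gene known from naive cells, stood at 26.1, 10.8, 4.24 and 1.54 TPM in XX and 0.804, 0.596, 0.691 and 0.549 TPM in XO (log2 change -3.99 ± 0.821, adjusted p = 0.00315), with a wide spread inside the XX group. Rcsd1, Lst1, Arl14epl and Hist2h2bb changed by -3.66, -3.22, -3.13 and -3.0, where all words of the histone gene are shared. The remaining member, Hormad1, is described with the germline genes.

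A further selection, made after the values were seen, took the largest changes among protein-coding genes with under 5% shared words whose XO libraries lay outside all 26 paired-read libraries. On the side of the falls it added Ooep, an oocyte-expressed gene also active in naive cells, at 460.0, 488, 271 and 343 TPM in XX and 63.8, 85.6, 49.2 and 41.7 TPM in XO (log2 change -2.7 ± 0.252, adjusted p = 2.3e-05). Fam25c stood at 500.2, 521, 416 and 581 TPM in XX and 147, 105, 108 and 85.5 TPM in XO (log2 change -2.18 ± 0.17, adjusted p = 6.8e-06), and Mgp, the matrix Gla protein, changed by -2.31 ± 0.293 (adjusted p = 1.7e-04). Serpinb1a and Zfp820 changed by -2.29 and -2.21. Among the rises, Crmp1, a cytoskeletal phosphoprotein of growth cones (chr5:37241940-37292133), stood at 6.55, 4.96, 10.3 and 8.69 TPM in XX and 36.4, 32.8, 46.8 and 43.4 TPM in XO (log2 change 2.38 ± 0.215, adjusted p = 1.8e-05), and Nefh, the heavy neurofilament chain (chr11:4938754-4948064), at 14.9, 13.5, 18.8 and 17.1 TPM in XX and 60.8, 47.4, 83.7 and 97.9 TPM in XO (log2 change 2.16 ± 0.214, adjusted p = 3.5e-05). Rarg, a retinoic acid receptor, stood at 42.9, 15.7, 78.3 and 35.9 TPM in XX and 159, 107, 177 and 156 TPM in XO (log2 change 1.79 ± 0.384, adjusted p = 0.00398). The lowest XO level of Rarg, 107 TPM, was above the highest XX level, 78.3 TPM, and the XX libraries spread widely among themselves. Map1a, Mapk4, Kdm8, Selenoi, Alox15, Ube2s and Cacnb3 changed by 1.57, 1.47, 1.44, 1.41, 1.4, 1.3 and 1.25.

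Across 23 gene lists the share of called members ranged widely around the background of 19.0% higher and 20.9% lower. Cholesterol synthesis stood furthest to the side of rises, with 19 of 22 members higher and none lower, and lysosome, naive pluripotency and p53 target genes furthest to the side of falls. A list's counts are read beside the background and beside the median of all protein-coding genes, -0.03, and no set test was made. Members on chromosome 12, distal chromosome 5 and the X are outside the counts.

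**Figure D3:**
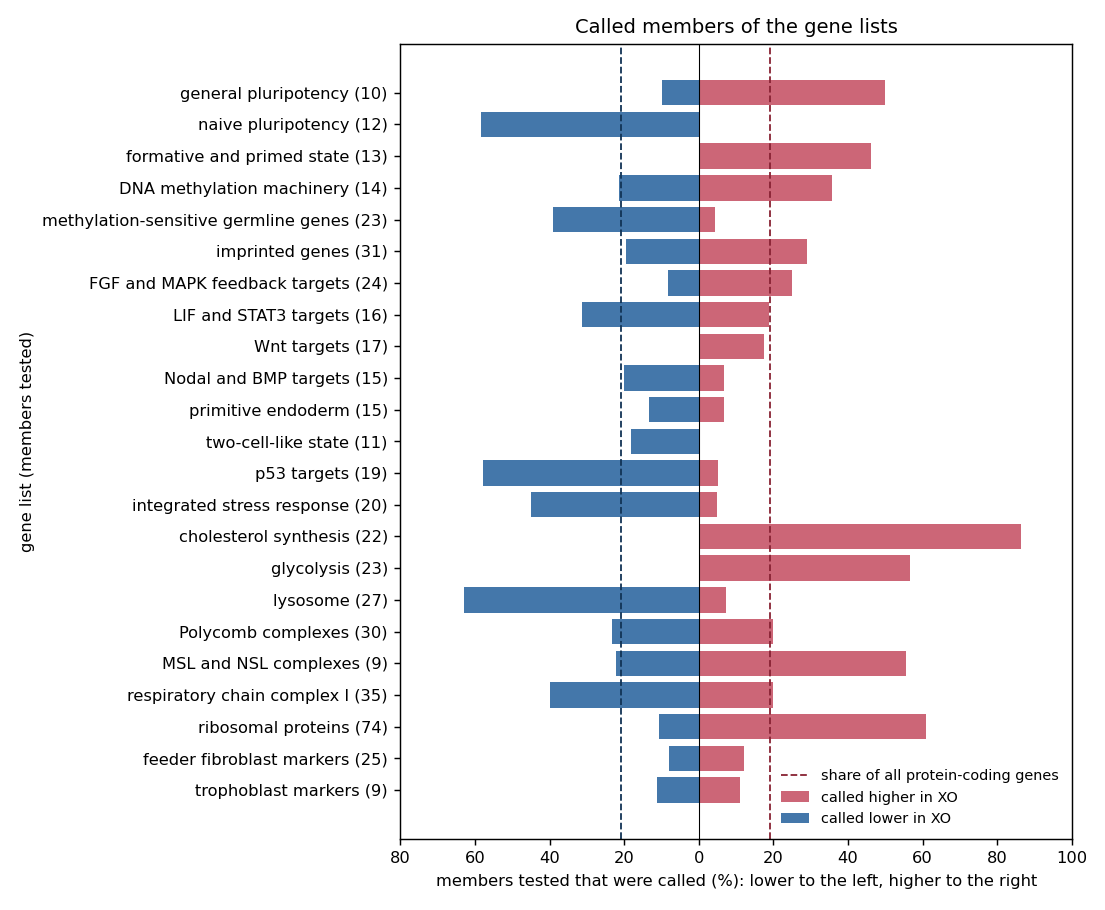
Share of tested members called higher in XO (bars to the right, %) and called lower (bars to the left, %) for each gene list, with the number of members tested in parentheses and dashed lines at the share of all protein-coding genes, 19.0 and 20.9%. Cholesterol synthesis reaches 86.4% higher and 0% lower, and lysosome 7.41% higher and 63% lower.

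General pluripotency genes stayed abundant in XO cells and moved in both directions. In the general pluripotency list 5 of 10 members were higher (50%) and 1 lower (10%), with a median of 0.31. The background was 19.0% higher and 20.9% lower. Without either X129OCast library 3 were higher. Pou5f1, which encodes Oct4, the factor that maintains pluripotency, stood at 1647, 1539, 1806 and 1881 TPM in XX and 1941, 1945, 2158 and 2137 TPM in XO (log2 change 0.25 ± 0.0777, adjusted p = 0.0264), and the call was lost without either XX wild type library or either X129OCast library (0.2 to 0.23). Sox2, its partner factor (chr3:34650405-34652461), stood at 680.2, 665, 714 and 709 TPM in XX and 324, 353, 384 and 438 TPM in XO (log2 change -0.89 ± 0.0903, adjusted p = 4.0e-05). All XO libraries were below all 26 paired-read libraries for Sox2, while for Pou5f1 the groups lay close together without overlap. Zfp462, a zinc finger factor of pluripotent cells, stood at 59.1, 35.7, 63.1 and 44.6 TPM in XX and 90.6, 99.4, 98.5 and 108 TPM in XO (log2 change 0.96 ± 0.159, adjusted p = 8.9e-04), and Dppa4, a chromatin factor of early development, at 193, 180.5, 182 and 183 TPM in XX and 272, 307, 278 and 273 TPM in XO (log2 change 0.61 ± 0.0711, adjusted p = 9.8e-05). Dppa4 has 31.3% shared words. The RNA-binding protein gene Lin28a changed by 0.62 ± 0.134 (adjusted p = 0.00421) and Sall4 by 0.41 ± 0.125 (adjusted p = 0.0223), the latter lost without XX Rnf12+/- 2 or either X129OCast library (0.34 to 0.38). Utf1 and Trim28, the most abundant members not called, changed by 0.27 ± 0.12 and 0.21 ± 0.079 (adjusted p = 0.0922 and 0.0551).

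Genes of the naive state were lower. Of 12 members tested 7 were lower and none higher, with a median of -0.92, and the count was also 7 in each fit that left out 1 library. Tbx3, a T-box factor that sustains self-renewal (chr5:119670669-119684724), stood at 210.1, 159, 200.0 and 214 TPM in XX and 82.5, 37.5, 40.5 and 47.3 TPM in XO (log2 change -1.92 ± 0.233, adjusted p = 1.3e-04). Prdm14, which restrains de novo methylation in naive cells (chr1:13113457-13127163), stood at 89.9, 73.6, 93.8 and 101 TPM in XX and 33.7, 35.5, 21.6 and 21.5 TPM in XO (log2 change -1.67 ± 0.187, adjusted p = 7.4e-05). Nanog (chr6:122707489-122714633) stood at 1023, 1016, 883 and 901 TPM in XX and 543, 469, 334 and 337 TPM in XO (log2 change -1.19 ± 0.156, adjusted p = 2.2e-04). The groups did not overlap in any of these, and Prdm14 and Nanog were below all 26 paired-read libraries. Nanog was also lower in X129OCast than in XCastO129 by 0.61 on the log2 scale (adjusted p = 0.046). Tfcp2l1, a target of LIF signalling, stood at 239 ± 11.7 TPM in XX and 112 ± 22.9 TPM in XO (SD, n = 4 each), a log2 change -1.09 ± 0.134, adjusted p = 1.4e-04. The other 3 called members, added after their values were seen, were Klf2 (-0.93), Klf5 (-0.9) and Fbxo15 (-1.09).

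The 2 most abundant naive genes not called were Zfp42 and Klf4. Zfp42 (also Rex1), a classical naive marker, stood at 771, 689, 850.4 and 878 TPM in XX and 1107, 1010.2, 753 and 781 TPM in XO (log2 change 0.19 ± 0.135, adjusted p = 0.274), and Klf4 at 285, 254, 517 and 646 TPM in XX and 446, 338, 269 and 289.8 TPM in XO (log2 change -0.35 ± 0.288, adjusted p = 0.354). In both genes the groups overlapped. On chromosome 12 Esrrb, a nuclear receptor of the naive network, stood at 837, 739.5, 745 and 778 TPM in XX and 723, 616, 526 and 562 TPM in XO (log2 change -0.36 ± 0.0995, adjusted p = 0.0152), and Tcl1, a cofactor of Akt, changed by -1.44. Against the 20 deletion libraries 6 of the 12 were lower and none higher, and the changes of Tbx3, Prdm14, Nanog and Tfcp2l1 were -1.28, -1.49, -0.74 and -0.93.

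**Figure D4:**
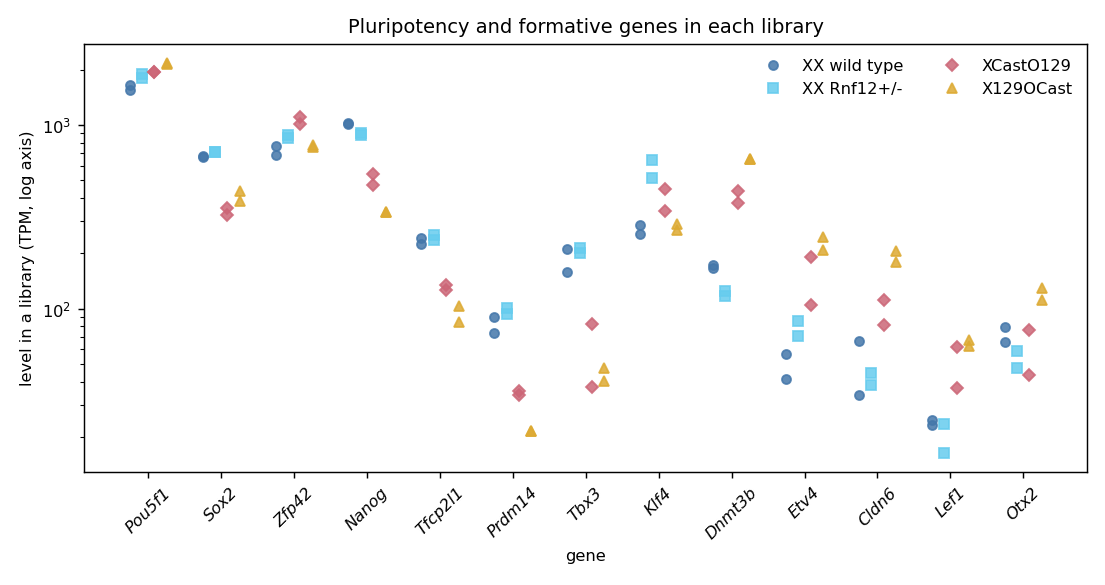
Level of 13 general, naive and formative pluripotency genes (horizontal axis) in TPM on a log axis (vertical axis), with a point per library and a colour and shape per genotype. Nanog, Tfcp2l1, Prdm14 and Tbx3 lie lower in all 4 XO libraries and Dnmt3b, Etv4, Cldn6 and Lef1 higher, whereas Zfp42, Klf4 and Otx2 overlap.

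The formative state is the stage between naive and primed pluripotency at which cells gain competence to differentiate. Of 13 members tested 6 were higher and none lower, with a median of 0.71, and without XCastO129 1 the count of rises was 10. Dnmt3b, a de novo methyltransferase induced on exit from the naive state (chr2:153649450-153687730), stood at 166, 172, 124 and 117 TPM in XX and 377, 438, 652 and 653 TPM in XO (log2 change 1.87 ± 0.199, adjusted p = 5.5e-05). All XO libraries lay above all 26 paired-read libraries, and X129OCast exceeded XCastO129 by 0.66 (adjusted p = 0.0408). Etv4, an ETS factor induced by FGF signalling, stood at 56.6, 41.6, 85.9 and 71.2 TPM in XX and 190.4, 105, 208 and 246 TPM in XO (log2 change 1.55 ± 0.271, adjusted p = 0.00127). Cldn6, a tight junction protein, stood at 33.7, 66.7, 38.4 and 44.7 TPM in XX and 81.2, 112, 207 and 180.0 TPM in XO (log2 change 1.66 ± 0.301, adjusted p = 0.00158), and Lef1, a transcription factor of the Wnt pathway, at 23.3, 24.7, 16.4 and 23.6 TPM in XX and 37.1, 61.9, 62.9 and 67.5 TPM in XO (log2 change 1.38 ± 0.189, adjusted p = 2.9e-04). None of these 3 overlapped between groups, though each reached the range of the deletion libraries. Otx2, a driver of the formative state, stood at 66, 79, 47.4 and 58.8 TPM in XX and 43.8, 76.6, 129.7 and 112 TPM in XO (log2 change 0.52 ± 0.286, adjusted p = 0.164), where the groups overlapped and both X129OCast libraries were highest. Epha2 changed by 0.3 ± 0.213 (adjusted p = 0.274). With the 20 deletion libraries as reference, 8 of the 13 were higher and none lower.

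In the DNA methylation machinery 5 of 14 members were higher and 3 lower, with a median of 0.2, Dnmt3b among the rises and Prdm14 among the falls. Dnmt1, the maintenance methyltransferase, stood at 192, 195, 189.6 and 193 TPM in XX and 238, 255, 253 and 259 TPM in XO (log2 change 0.38 ± 0.057, adjusted p = 5.0e-04). Tet1, which oxidises methylated cytosine, stood at 132 ± 14.5 TPM in XX and 201 ± 15.3 TPM in XO (SD, n = 4 each), a log2 change 0.59 ± 0.0927, adjusted p = 6.4e-04, and Tdg, a glycosylase of the demethylation pathway with 41.2% shared words, changed by 0.76 ± 0.0981 (adjusted p = 2.0e-04). For Tet1 and Tdg the XO libraries were above all 26 paired-read libraries, while for Dnmt1 they were inside the range of the deletion libraries. Hells, a chromatin remodeller needed for methylation, stood at 272, 229, 227 and 191 TPM in XX and 137, 144, 140.1 and 144 TPM in XO (log2 change -0.7 ± 0.097, adjusted p = 3.0e-04). Its change depended on the reference, being 0.05 against the 20 deletion libraries. Tet3 changed by -0.35 ± 0.121 (adjusted p = 0.04) and lost its call without either XX wild type library, XX Rnf12+/- 2, either XCastO129 library or X129OCast 1 (-0.37 to -0.28). Uhrf1, the partner that guides Dnmt1, changed by 0.18 ± 0.0816 (adjusted p = 0.0961).

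Genes of the germline that DNA methylation is known to silence were lower in part. Of 23 members tested 9 were lower and 1 higher, with a median of -0.7. Their promoters are known for an E-box, the motif CACGTG, and the promoters of 2 called members with this motif, chosen after their values were seen, are shown as RefSeq gives them (GRCm38.p6, 250 bases before to 50 after the start), with CACGTG in capitals. They are Hormad1 at chr3:95559427-95559726 and Sycp3 at chr10:88459337-88459636, both on the plus strand.
Hormad1: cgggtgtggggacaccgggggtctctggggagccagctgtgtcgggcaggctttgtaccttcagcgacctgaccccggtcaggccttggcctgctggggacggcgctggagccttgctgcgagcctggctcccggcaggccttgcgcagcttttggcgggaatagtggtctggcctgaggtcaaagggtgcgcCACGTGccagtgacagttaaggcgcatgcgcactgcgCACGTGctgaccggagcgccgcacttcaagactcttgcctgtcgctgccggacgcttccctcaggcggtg
Sycp3: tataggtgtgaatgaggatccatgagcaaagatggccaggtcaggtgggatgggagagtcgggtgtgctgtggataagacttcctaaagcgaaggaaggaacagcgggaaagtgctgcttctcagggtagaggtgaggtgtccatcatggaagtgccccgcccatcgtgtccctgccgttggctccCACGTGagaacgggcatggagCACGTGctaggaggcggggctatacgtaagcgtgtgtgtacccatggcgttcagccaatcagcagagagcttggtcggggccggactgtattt

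The motif, which reads the same on both strands, began 57 and 20 bases before the start in Hormad1 and 64 and 43 bases before it in Sycp3. It occurred in 10 of the 20 tested germline genes with a matched promoter, in 4 of 8 called lower and in 5 of 11 not called. Among all tested protein-coding genes with a promoter it occurred in 13.7% called higher, 12.5% called lower and 10.8% not called. Over all promoters, counted singly and expressed or not, it was in 2349 of 32851 (7.15%). Hormad1, a protein of the meiotic chromosome axis with 22.9% shared words, stood at 38, 59.5, 11.3 and 12 TPM in XX and 1.61, 5.64, 2.31 and 1.49 TPM in XO (log2 change -3.44 ± 0.641, adjusted p = 0.0018). Sycp3, of the synaptonemal complex, stood at 31.3, 70.7, 30.9 and 51.3 TPM in XX and 8.31, 9.05, 13.7 and 10.2 TPM in XO (log2 change -2.16 ± 0.298, adjusted p = 3.0e-04), with 43% shared words. In both, all XO libraries were below all XX libraries, and the XX libraries spread among themselves. The XO levels reached the range of the deletion libraries, whose lowest level was 4.14 TPM for Hormad1 and 12.9 TPM for Sycp3. No tested member of the list lay below all 26 paired-read libraries. Smc1b, a meiotic cohesin, changed by -2.76 ± 0.751 (adjusted p = 0.0134), and Majin, which anchors meiotic telomeres, by -1.93 ± 0.537 (adjusted p = 0.0151). The exception was Tdrd1, a Tudor protein of the piRNA pathway, at 1.07, 1.15, 0.83 and 0.662 TPM in XX and 2.95, 3.04, 4.91 and 4.9 TPM in XO (log2 change 2.08 ± 0.272, adjusted p = 2.2e-04). Rnf17 and Syce1 were not called, at -0.71 ± 0.323 and 0.74 ± 0.349 (adjusted p = 0.0997 and 0.109). Relative to the 20 deletion libraries 9 were lower and 2 higher. The count of rises was 3 without XX wild type 2 and 2 without XX Rnf12+/- 2.

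Of 31 imprinted genes, expressed from the maternal or the paternal copy, 9 were higher (29%) and 6 lower (19.4%), with a median of 0.19. The background was 19.0% higher and 20.9% lower. Snrpn, of the Prader-Willi region, stood at 258, 283, 199 and 204 TPM in XX and 333, 346, 582 and 581 TPM in XO (log2 change 0.96 ± 0.203, adjusted p = 0.00373). Snrpn, with 26.5% shared words, was above all 26 paired-read libraries and higher in X129OCast than in XCastO129 by 0.76 (adjusted p = 0.0173). Magel2, of the same region, stood at 3.19, 3.43, 3.26 and 1.45 TPM in XX and 3.89, 9.84, 13.7 and 18.2 TPM in XO (log2 change 2.0 ± 0.429, adjusted p = 0.00395), and Phlda2, a growth restrictor of the placenta, at 19.5, 25, 26.6 and 27.7 TPM in XX and 72.7, 52, 82.1 and 87.1 TPM in XO (log2 change 1.57 ± 0.184, adjusted p = 1.0e-04). Nnat changed by 1.02 ± 0.237 (adjusted p = 0.00603). Plagl1, a zinc finger factor, stood at 34.2, 23.5, 21.5 and 11.3 TPM in XX and 2.41, 6.96, 1.67 and 2.1 TPM in XO (log2 change -2.78 ± 0.468, adjusted p = 0.001), and Impact, a translation regulator, at 225, 217, 236 and 188 TPM in XX and 102, 176, 111 and 102 TPM in XO (log2 change -0.82 ± 0.17, adjusted p = 0.00326). XCastO129 2 was the highest XO library for both. Ndn and Mkrn3, neighbours of Magel2 and Snrpn, changed the other way, by -1.25 and -1.0. H19 and Jade1 were not called, at -0.8 ± 0.446 and -0.06 ± 0.13 (adjusted p = 0.169 and 0.742), and Jade1 stood at 0.65 against the 20 deletion libraries. On chromosome 12 Meg3, Mirg, Dlk1 and Rian, all of the Dlk1-Dio3 cluster, were higher by 1.42, 1.22, 0.82 and 0.6, opposite to Dio3.

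Of 24 feedback targets of FGF and MAPK signalling 6 were higher (25%) and 2 lower (8.33%), with a median of 0.02. The background was 19.0% higher and 20.9% lower. In this list 4 were lower without XX wild type 2 or without XCastO129 2. Beside Etv4, the negative regulator Spred2 stood at 52.9, 45.1, 55.6 and 45.7 TPM in XX and 88.9, 74.7, 98.7 and 101 TPM in XO (log2 change 0.86 ± 0.112, adjusted p = 2.1e-04), and Etv5 at 187, 162, 196 and 186 TPM in XX and 313, 335, 288 and 295 TPM in XO (log2 change 0.75 ± 0.0825, adjusted p = 6.8e-05). Spred2 was above all 26 paired-read libraries. Il17rd, a dampener of FGF receptors also called Sef, changed by 0.66 ± 0.148 (adjusted p = 0.00482). Egr1, an immediate early gene of the pathway, stood at 428, 367, 441 and 593 TPM in XX and 323, 240.1, 178 and 185 TPM in XO (log2 change -0.99 ± 0.203, adjusted p = 0.00317), and Dusp4, a MAPK phosphatase, at 157, 124, 109.9 and 82.5 TPM in XX and 71.4, 76.5, 45.1 and 49.8 TPM in XO (log2 change -0.96 ± 0.218, adjusted p = 0.00525). Egr1 and Dusp4 were lower in all XO than in all XX libraries. Spry2 and Ccnd1, the most abundant members not called, stood at 0.32 ± 0.163 and 0.06 ± 0.191 (adjusted p = 0.139 and 0.82). Compared with the 20 deletion libraries, 10 were higher and 1 lower.

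Genes of LIF and STAT3 signalling, which sustains mESCs in culture, had 3 rises and 5 falls of 16, with a median of -0.24. These were 18.8 and 31.2% of the list, beside a background of 19.0 and 20.9%. The receptor Lifr stood at 20.7, 17.4, 16.9 and 19.4 TPM in XX and 43.9, 28.6, 35 and 39.4 TPM in XO (log2 change 0.98 ± 0.13, adjusted p = 2.3e-04), the transcription factor Stat3 at 45.9, 39.4, 43.6 and 41.3 TPM in XX and 61.9, 65.2, 58.9 and 61.3 TPM in XO (log2 change 0.53 ± 0.0734, adjusted p = 2.9e-04). Socs3, the feedback inhibitor that STAT3 induces, stood at 83.2, 81.2, 62.7 and 82.2 TPM in XX and 238, 152, 160.1 and 167 TPM in XO (log2 change 1.21 ± 0.153, adjusted p = 1.7e-04). All 3 were above all 26 paired-read libraries. Among the falls was the kinase Pim1 at 207, 225, 161 and 146 TPM in XX and 72, 131, 61 and 63.3 TPM in XO (log2 change -1.18 ± 0.246, adjusted p = 0.0034), beside Tfcp2l1. Fosl2, an AP-1 subunit, changed by -0.8 ± 0.28 (adjusted p = 0.0395), and its call was lost without XX wild type 1, XX Rnf12+/- 1, XCastO129 1 or either X129OCast library (-0.87 to -0.54). Pim3 changed by -0.22 ± 0.0871 (adjusted p = 0.066). Without XX wild type 1, XX Rnf12+/- 1, XCastO129 1 or X129OCast 1 the count of falls was 3.

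Wnt targets had 3 rises and no fall of 17, with a median of 0.16, and 1 fall without XCastO129 2. Beside Lef1 the rises included Tcf7l1, a repressor of Wnt target genes, at 124, 97.8, 102 and 70.5 TPM in XX and 133, 153, 153 and 167 TPM in XO (log2 change 0.61 ± 0.149, adjusted p = 0.00753), above all 26 paired-read libraries. Znrf3, a ubiquitin ligase that removes Wnt receptors, changed by 0.28 ± 0.104 (adjusted p = 0.048), a call lost without either XX wild type library, either XX Rnf12+/- library or either X129OCast library (0.23 to 0.33). Tcf7 was not called at 0.1 ± 0.193 (adjusted p = 0.712) and stood at -0.39 against the 20 deletion libraries, where 10 of the 17 were higher and 2 lower. Nodal and BMP targets had 1 rise and 3 falls of 15, with a median of -0.36, and 5 falls without XCastO129 1. Id3, a BMP target that blocks differentiation factors, stood at 152, 151, 133 and 96.3 TPM in XX and 43.7, 75.7, 62.8 and 65.9 TPM in XO (log2 change -1.11 ± 0.184, adjusted p = 9.4e-04), and Lefty2, a Nodal antagonist, at 558, 406, 707 and 499 TPM in XX and 249, 347, 283 and 239.8 TPM in XO (log2 change -0.96 ± 0.17, adjusted p = 0.00136). The groups did not overlap in either, but both XO ranges lay inside that of the deletion libraries. Msx2 changed by -1.75 ± 0.419 (adjusted p = 0.00702) and Skil, a SMAD corepressor, by 0.75 ± 0.164 (adjusted p = 0.00419). Tdgf1 and Lefty1 were not called, at 0.19 ± 0.15 and -0.3 ± 0.319 (adjusted p = 0.325 and 0.465).

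Markers of other cell types gave few calls. Primitive endoderm genes had 1 rise and 2 falls of 15 (median -0.35), led by Lrp2, the receptor megalin, at 4.78, 3.66, 5.75 and 2.9 TPM in XX and 5.31, 8.59, 20 and 22.7 TPM in XO (log2 change 1.72 ± 0.417, adjusted p = 0.00764). X129OCast carried the higher values of Lrp2. Hnf4a changed by -2.36 ± 0.496 (adjusted p = 0.00353) from a mean of 1.05 TPM in XX, and Sparc by -0.75 ± 0.242 (adjusted p = 0.0281), the latter lost without XX wild type 1, XX Rnf12+/- 1 or either X129OCast library (-0.66 to -0.61). Without XX Rnf12+/- 1 or either X129OCast library the list had 1 fall. Lama1 and Col4a1 were not called, at -0.11 ± 0.264 and -0.12 ± 0.284 (adjusted p = 0.76 and 0.756), and Col4a1 stood at 0.49 against the 20 deletion libraries. Genes of the state that resembles the 2-cell embryo had no rise and 2 falls of 11 (median -0.24), of which 10 have at least 5% shared words. Calcoco2, an autophagy receptor, stood at 379.6, 232, 215 and 103 TPM in XX and 67.2, 52.4, 47.9 and 42.2 TPM in XO (log2 change -2.15 ± 0.329, adjusted p = 5.7e-04), and Zfp352 changed by -1.74 ± 0.623 (adjusted p = 0.0441), lost without either XX wild type library, XCastO129 1 or either X129OCast library (-1.61 to -1.29). Tmem92 and Dppa2 were not called, at -1.26 ± 0.485 and 0.2 ± 0.183 (adjusted p = 0.0575 and 0.403). The falls of that list numbered 4 without XX Rnf12+/- 2 and 1 without either wild type XX library, XCastO129 1 or either X129OCast library.

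Trophoblast markers had 1 rise and 1 fall of 9 (median 0.09). The rise was Hand1 at 1.16, 1.45, 0.936 and 0.392 TPM in XX and 9.12, 1.27, 1.9 and 1.76 TPM in XO (log2 change 1.82 ± 0.664, adjusted p = 0.0469), which rested on XCastO129 1, since the change was 0.72 and not called without that library. It was also lost without any 1 of the XX libraries, at 1.56 to 2.07. Gata3 changed by -2.36 ± 0.585 (adjusted p = 0.00859), and Tfap2c and Tead4 were not called, at -0.55 ± 0.306 and 0.09 ± 0.218 (adjusted p = 0.172 and 0.756). Rises in this list numbered 0 without XX wild type 1 or either XX Rnf12+/- library, 3 without XX wild type 2 and 2 without XCastO129 1. Feeder fibroblast markers had 3 rises and 2 falls of 25 (median -0.53). Col6a3, a collagen chain, stood at 6.39, 6.61, 6.29 and 6.71 TPM in XX and 9.76, 22.4, 9.28 and 15 TPM in XO (log2 change 1.11 ± 0.249, adjusted p = 0.00497), with XCastO129 2 highest. Postn and Col6a2 changed by 0.95 and 0.75, and both calls were lost without XCastO129 2 (0.6 and 0.45), either wild type XX library, XX Rnf12+/- 2 or X129OCast 2. Ccn2, a matricellular protein, stood at 224, 137, 198 and 99.5 TPM in XX and 50.6, 79.8, 39.2 and 43.9 TPM in XO (log2 change -1.63 ± 0.282, adjusted p = 0.00119), and Timp3 changed by -1.07 ± 0.363 (adjusted p = 0.0349), lost without XX wild type 1, XX Rnf12+/- 1, either XCastO129 library or either X129OCast library (-1.15 to -0.82). The abundant markers Fn1 and Vim were not called, at 0.03 ± 0.259 and -0.61 ± 0.326 (adjusted p = 0.935 and 0.154). Rises in this list numbered 1 without either wild type XX library, XX Rnf12+/- 2, XCastO129 2 or X129OCast 2, and falls numbered 1 to 8, the highest count without XX Rnf12+/- 2 and 6 without XX wild type 2.

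Targets of p53, which halts division or kills damaged cells, were lower. Of 19 members 11 were lower and 1 higher, with a median of -0.68, and 10 of the 16 members with under 5% shared words were lower. Gdf15, a secreted stress factor (chr8:70629393-70632456), stood at 6.23, 15.1, 4.63 and 10.7 TPM in XX and 1.85, 1.37, 2.62 and 3.29 TPM in XO (log2 change -2.01 ± 0.416, adjusted p = 0.00324). It was below all 26 paired-read libraries, as were 2 further members added after their values were seen, Cdkn1a (-0.93), the inhibitor p21 of the cell cycle, and Bbc3 (-0.64), the death factor PUMA. Trp53inp1 stood at 116, 88.6, 124 and 92.3 TPM in XX and 59.7, 68.1, 34.1 and 29.5 TPM in XO (log2 change -1.14 ± 0.255, adjusted p = 0.00495), with X129OCast lowest, and Btg2, an antiproliferative gene, at 71.8, 53.7, 88.4 and 64.9 TPM in XX and 41, 44.5, 22.7 and 23.8 TPM in XO (log2 change -1.08 ± 0.241, adjusted p = 0.00485). Perp, a desmosome protein that mediates cell death, changed by -1.11 ± 0.277 (adjusted p = 0.00893). The lone rise was Aen, a nuclease, at 55.4, 44.9, 60.4 and 45.1 TPM in XX and 64.7, 67.7, 67.3 and 71.4 TPM in XO (log2 change 0.39 ± 0.105, adjusted p = 0.0123). Bax and Sesn2 were not called, at 0.07 ± 0.0815 and 0.1 ± 0.115 (adjusted p = 0.517 and 0.504). Falls in this list numbered 8 to 13 with 1 library left out, and against the 20 deletion libraries 10 were lower and 2 higher.

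The integrated stress response, the programme that ATF4 drives when amino acids are short or proteins misfold, showed 9 falls and 1 rise among 20 members, with a median of -0.62. Asns, asparagine synthetase (chr6:7675169-7693254), stood at 451, 760.2, 393 and 745 TPM in XX and 373, 240.3, 257 and 217 TPM in XO (log2 change -1.12 ± 0.24, adjusted p = 0.00403). Atf3, a transcription factor of the response, stood at 40.4, 28, 37 and 35.4 TPM in XX and 11.7, 10.5, 15.5 and 11.2 TPM in XO (log2 change -1.53 ± 0.167, adjusted p = 6.5e-05), and Cth, of cysteine synthesis, at 67.4, 101, 66.6 and 111 TPM in XX and 40, 42.1, 41.9 and 37.2 TPM in XO (log2 change -1.1 ± 0.169, adjusted p = 5.8e-04). The groups did not overlap in any of these, and Cth was below all 26 paired-read libraries. Cebpb changed by -1.55 ± 0.329 (adjusted p = 0.00378). The rise was in Phgdh, the first enzyme of serine synthesis, with 47.8% shared words, at 81.3, 102, 87.7 and 119 TPM in XX and 216, 175, 186 and 160.1 TPM in XO (log2 change 0.91 ± 0.136, adjusted p = 4.8e-04). Psat1 and Shmt2 were not called, at -0.37 ± 0.195 and -0.01 ± 0.171 (adjusted p = 0.15 and 0.964). With the 20 deletion libraries as reference, 14 of the 20 were lower and 2 higher, and without XCastO129 2 the XX comparison had 2 rises.

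Cholesterol synthesis rose nearly throughout. Of 22 members 19 were higher and none lower, with a median of 0.69, and among the 16 with under 5% shared words 14 were higher. With 1 library left out 16 to 20 were higher, with 1 fall without XX wild type 2 or XCastO129 2. Fdps, which makes farnesyl pyrophosphate and has 26.2% shared words (chr3:89093588-89101959), stood at 9.8, 10.1, 7.48 and 10 TPM in XX and 48.1, 36.3, 53.8 and 53.2 TPM in XO (log2 change 2.35 ± 0.152, adjusted p = 1.8e-06). Lss, the enzyme that closes the sterol rings, stood at 24.1, 25.5, 22 and 28.1 TPM in XX and 70.7, 38.7, 68.4 and 69.4 TPM in XO (log2 change 1.31 ± 0.176, adjusted p = 2.6e-04), with XCastO129 2 lowest of the XO libraries. For Fdps the XO libraries were above all 26 paired-read libraries, as for 7 members of the list in all and for 5.49% of all protein-coding genes. Idi1, with 25.3% shared words, changed by 1.09 ± 0.12 (adjusted p = 6.6e-05). The master regulator Srebf2, added after its values were seen, changed by 0.48, but stood at 0.02 against the 20 deletion libraries and was not called there. Acat2 and Stard4 were not called, at 0.4 ± 0.16 and 0.2 ± 0.127 (adjusted p = 0.0658 and 0.237). The median was 0.58 in XCastO129 and 0.75 in X129OCast, and against the 20 deletion libraries 14 were higher and none lower.

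Glycolysis depended on the reference. Against the XX libraries 13 of 23 members were higher and none lower, with a median of 0.5, and 4 of the 11 with under 5% shared words were higher. Eno3, an enolase, stood at 24.1, 22.2, 20.3 and 17.7 TPM in XX and 69.8, 44.8, 44.6 and 41.9 TPM in XO (log2 change 1.25 ± 0.184, adjusted p = 4.5e-04), and Pkm, pyruvate kinase with 25.8% shared words, at 1625, 1761, 1529 and 1754 TPM in XX and 3286, 2984, 3160.0 and 3131 TPM in XO (log2 change 0.91 ± 0.0661, adjusted p = 4.1e-06). Pgam1 and Gapdh, with 36.2 and 25.1% shared words, changed by 1.1 and 1.22. These 4 were above all 26 paired-read libraries. Without XX wild type 1, XX Rnf12+/- 1 or XCastO129 1 the list had 1 fall. Relative to the 20 deletion libraries, however, 7 were higher and 8 lower. The glucose transporters Slc2a1 and Slc2a3 stood at 0.01 ± 0.195 and -0.51 ± 0.207 against XX (adjusted p = 0.976 and 0.068) and at -0.37 and -0.91 against the deletion libraries (adjusted p = 0.00982 and 1.0e-06). For Slc2a3 the XX levels were 455, 685, 508 and 832 TPM, so the XX replicates themselves differed.

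Lysosomal genes were lower. Of 27 members 17 were lower and 2 higher, with a median of -0.47, and 8 lay below all 26 paired-read libraries. Among all protein-coding genes 4.06% did so. With 1 library left out 13 to 16 were lower, and 1 was higher without either wild type XX library, XX Rnf12+/- 1 or XCastO129 2. Against the 20 deletion libraries 17 were lower and none higher. Many lysosomal promoters are known to hold CACGTG sites that TFEB, TFE3 and MITF, factors of lysosome formation, bind. The promoters of 4 called members with the motif are shown for comparison, from RefSeq on the plus strand of GRCm38.p6, chosen after the values were seen. They are Naglu at chr11:101069844-101070143, Lamp1 at chr8:13158911-13159210, Ctsa at chr2:164833523-164833822 and Mcoln1 at chr8:3500269-3500568, again with CACGTG in capitals.
Naglu: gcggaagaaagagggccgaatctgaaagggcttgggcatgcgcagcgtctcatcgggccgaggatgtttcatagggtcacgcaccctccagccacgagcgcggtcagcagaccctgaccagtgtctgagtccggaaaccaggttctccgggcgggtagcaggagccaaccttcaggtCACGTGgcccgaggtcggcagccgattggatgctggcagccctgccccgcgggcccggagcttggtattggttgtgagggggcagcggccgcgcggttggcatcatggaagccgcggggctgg
Lamp1: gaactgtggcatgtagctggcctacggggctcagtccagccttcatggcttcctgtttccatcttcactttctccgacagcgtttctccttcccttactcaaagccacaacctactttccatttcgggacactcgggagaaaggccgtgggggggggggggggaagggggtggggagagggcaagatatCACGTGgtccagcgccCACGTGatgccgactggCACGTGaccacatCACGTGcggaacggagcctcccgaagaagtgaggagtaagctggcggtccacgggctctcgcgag
Ctsa: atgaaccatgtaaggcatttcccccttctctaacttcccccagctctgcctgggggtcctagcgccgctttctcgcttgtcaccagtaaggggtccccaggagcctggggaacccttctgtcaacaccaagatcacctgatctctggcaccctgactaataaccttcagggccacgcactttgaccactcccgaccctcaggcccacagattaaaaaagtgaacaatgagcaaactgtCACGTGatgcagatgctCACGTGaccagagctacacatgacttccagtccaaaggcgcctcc
Mcoln1: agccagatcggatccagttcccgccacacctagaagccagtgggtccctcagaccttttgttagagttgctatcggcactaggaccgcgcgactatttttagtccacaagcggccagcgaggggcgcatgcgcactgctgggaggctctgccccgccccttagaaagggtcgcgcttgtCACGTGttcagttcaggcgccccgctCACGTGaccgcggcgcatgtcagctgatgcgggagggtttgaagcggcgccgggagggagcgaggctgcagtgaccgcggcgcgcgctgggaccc

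The Lamp1 promoter held 4 such motifs, the farthest 61 bases before the start, Ctsa and Mcoln1 held 2 each and Naglu 1. Over the whole tested list 9 of 21 members with a matched promoter held CACGTG (42.9%). Of the 17 lower members 13 had a matched promoter and 8 of those held CACGTG (61.5%), against 1 of 6 members not called. Among tested protein-coding genes with a promoter the motif occurred in 259 of 1885 called higher (13.7%), 254 of 2039 called lower (12.5%) and 626 of 5818 not called (10.8%). The longer form TCACGTGA, which contains it, occurred in 5 of the 13 lower members. Among tested protein-coding genes with a promoter it occurred in 2.39% called higher, 2.75% called lower and 1.72% not called. Over all promoters, counted singly and expressed or not, its share was 0.974%. A match of letters is a description and no sign of binding.

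Naglu, an enzyme of heparan sulfate breakdown (chr11:101070012-101077672), stood at 5.9, 7.46, 8.09 and 8.25 TPM in XX and 3.06, 3.75, 2.06 and 3.08 TPM in XO (log2 change -1.32 ± 0.229, adjusted p = 0.00123). Ctsl, the protease cathepsin L with 26.3% shared words, stood at 155, 155, 156 and 121 TPM in XX and 72.2, 80, 70.7 and 70.2 TPM in XO (log2 change -1.0 ± 0.0953, adjusted p = 2.6e-05). In both every XO library was below all 26 paired-read libraries. Mitf itself stood at 13.5, 12.9, 7.04 and 9.63 TPM in XX and 5.4, 3.52, 3.94 and 3.55 TPM in XO (log2 change -1.39 ± 0.23, adjusted p = 8.9e-04), without overlap between the groups but inside the range of the deletion libraries. Its relative Tfeb, added after its values were seen, changed by -0.56, Lamp1 by -0.82, Ctsa by -0.64 and Mcoln1 by -0.36. Against the 20 deletion libraries Tfeb stood at -0.18 and was not called. Lamp1, Ctsa and Mcoln1 stood there at -0.52, -0.75 and -0.68. The X-linked relative Tfe3, named after its values were seen, stood at 92.8, 92.4, 73.1 and 79 TPM in XX and 58.9, 74, 72.3 and 77.1 TPM in XO (log2 change -0.26 ± 0.106, adjusted p = 0.0682) and was not called. On chromosome 12 Npc2, a cholesterol carrier of the lysosome, changed by -0.87. Ctsz was higher, at 0.34 ± 0.0912 (adjusted p = 0.0125), and so was Scarb2, at 0.32 ± 0.105 (adjusted p = 0.0293), though that call was lost without either XX wild type library, XX Rnf12+/- 1 or either XCastO129 library (0.24 to 0.33). Psap and Glb1 were not called, at 0.14 ± 0.117 and 0.09 ± 0.093 (adjusted p = 0.375 and 0.456).

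**Figure D5:**
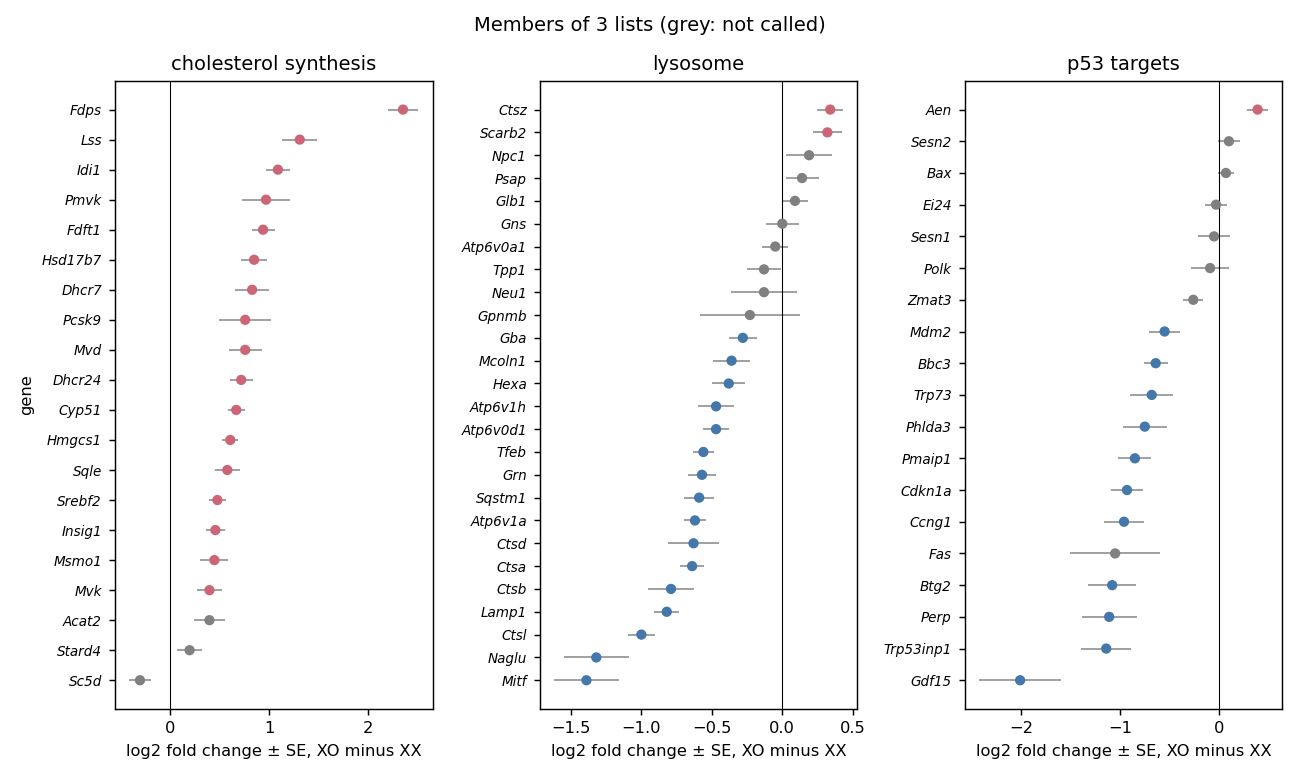
Log2 fold change of XO against XX with its SE (horizontal axis) for autosomal members (vertical axis) of cholesterol synthesis, lysosome and p53 targets, with red for called higher, blue for called lower and grey for not called. Cholesterol genes run up to 2.35 (Fdps), lysosomal genes down to -1.39 (Mitf) and p53 targets down to -2.01 (Gdf15).

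Subunits of respiratory chain complex I, the first proton pump of mitochondria, were lower for 14 and higher for 7 of 35, with a median of -0.06. The rises were unstable: they numbered 2 without either wild type XX library, 3 without XX Rnf12+/- 1, XCastO129 1 or either X129OCast library and 4 without XX Rnf12+/- 2, whereas the falls numbered 12 to 15. Ndufa4 stood at 375, 409, 385 and 413 TPM in XX and 310.3, 271, 263 and 236 TPM in XO (log2 change -0.55 ± 0.0923, adjusted p = 9.6e-04) and Ndufs4, an accessory subunit, at 78.9, 97.1, 77.4 and 89.3 TPM in XX and 62.1, 62, 60.4 and 53.6 TPM in XO (log2 change -0.53 ± 0.099, adjusted p = 0.00182). Ndufb5 changed by -0.51 ± 0.0835 (adjusted p = 8.8e-04) and Ndufc2 by -0.67 ± 0.0903 (adjusted p = 2.6e-04). All but Ndufc2 of these 4 were below all 26 paired-read libraries. Ndufs5 and Ndufa3 were higher, by 0.46 and 0.46. Ndufb2 and Ndufa7 changed by 0.38 and 0.32, the first lost without either XX wild type library, either XX Rnf12+/- library, XCastO129 1 or X129OCast 2 (0.32 to 0.4), the second lost without either XX wild type library, XX Rnf12+/- 1, XCastO129 1 or X129OCast 1 (0.25 to 0.32), and Ndufa7 stood at -0.06 against the 20 deletion libraries. Ndufb10 was not called, at -0.17 ± 0.0935 (adjusted p = 0.165).

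Genes of ribosomal proteins were higher for 45 and lower for 8 of 74, with a median of 0.44, and 7 of the 74 had under 5% shared words, of which 2 were higher and 1 lower. In 31 of the 74 the XO libraries were above all 26 paired-read libraries, against 5.49% of all protein-coding genes. Among the 305 protein-coding genes with at least 50% shared words 78 were above all 26. Beside Rpl24, with 51.8% shared words, the largest rises were Rpl29 at 1.97, Rps10 at 1.7 and Rpl41 at 1.31, which had 35.5, 22.6 and 17.6% shared words. Rps27l, a p53-responsive relative of Rps27, changed by -0.58 ± 0.127 (adjusted p = 0.00419), Rpl17 by -0.54 ± 0.147 (adjusted p = 0.0134) and Rplp2 by -0.4 ± 0.111 (adjusted p = 0.0145). Rpl8 and Rpl4 were not called, at -0.09 ± 0.0688 and 0.15 ± 0.0746 (adjusted p = 0.333 and 0.134).

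Polycomb genes, which silence developmental regulators, had 6 rises and 7 falls of 30, with a median of 0.07. These shares, 20 and 23.3%, lay near the background of 19.0 and 20.9%. Subunits of Polycomb repressive complex 1 were among the rises. Phc1 (chr6:122317731-122340561) stood at 350.0, 315, 316 and 297 TPM in XX and 550.2, 605, 659 and 656 TPM in XO (log2 change 0.95 ± 0.0779, adjusted p = 9.8e-06), Cbx7 at 96.9, 110.4, 108 and 118 TPM in XX and 159, 159, 169 and 181 TPM in XO (log2 change 0.62 ± 0.0798, adjusted p = 1.9e-04). Rybp changed by 0.71 ± 0.121 (adjusted p = 0.00113) and Kdm2b by 0.68 ± 0.122 (adjusted p = 0.00146), and these 4 were above all 26 paired-read libraries. Suz12, a core subunit of complex 2, stood at 315, 288, 270.2 and 281 TPM in XX and 181, 156, 150.2 and 145 TPM in XO (log2 change -0.87 ± 0.0871, adjusted p = 3.7e-05), and its accessory subunit Mtf2 at 214, 216, 199 and 211 TPM in XX and 143, 141, 109 and 112 TPM in XO (log2 change -0.74 ± 0.102, adjusted p = 3.0e-04). Both were lower without overlap. Against the 20 deletion libraries Suz12 stood at -0.5 and Mtf2 at -0.22, and Mtf2 was not called there. Bmi1, of complex 1, changed by -1.62 ± 0.227 (adjusted p = 3.3e-04). Its change against the 20 deletion libraries was -0.59 and was not called. Rbbp4 and Pcgf2 were not called, at 0.0 ± 0.0657 and 0.3 ± 0.116 (adjusted p = 0.999 and 0.0568).

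The MSL and NSL complexes carry the acetyltransferase Kat8 (MOF), which acetylates lysine 16 of histone H4 and in flies serves dosage compensation of the X. Of 9 autosomal members 5 were higher and 2 lower, with a median of 0.27. Kat8 stood at 33.1, 36.3, 41.2 and 39.6 TPM in XX and 41.6, 45.3, 51.9 and 49.3 TPM in XO (log2 change 0.32 ± 0.107, adjusted p = 0.0336), with XO levels just above XX levels, and the call was lost without either XX wild type library or either X129OCast library (0.26 to 0.3). Kansl2, an NSL subunit with 34.7% shared words, stood at 50, 47.3, 47.9 and 43.2 TPM in XX and 73.6, 82.3, 93.3 and 88.8 TPM in XO (log2 change 0.84 ± 0.0909, adjusted p = 6.2e-05). Mcrs1, with 29.1% shared words, changed by 0.72 ± 0.114 (adjusted p = 7.0e-04) and Phf20 by 0.42 ± 0.0864 (adjusted p = 0.00329). Msl2, the ubiquitin ligase of the MSL complex (chr9:101074101-101104800), stood at 54.8, 50.6, 49.4 and 46.9 TPM in XX and 31.3, 34, 28.1 and 26.6 TPM in XO (log2 change -0.75 ± 0.0977, adjusted p = 2.0e-04), lower than XX in every XO library. Wdr5 changed by -0.35 ± 0.107 (adjusted p = 0.023), lost without either XX Rnf12+/- library (-0.33 to -0.25). Msl1 and Kansl1 were not called, at 0.1 ± 0.146 and -0.04 ± 0.0656 (adjusted p = 0.595 and 0.633). Without either wild type XX library or either X129OCast library 3 were higher, and without either XX Rnf12+/- library 1 was lower.

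Among the most abundant genes called, Hsp90ab1, a chaperone, stood at 7266, 7406, 7399 and 7772 TPM in XX and 8880.4, 8893, 9757 and 9659 TPM in XO (log2 change 0.31 ± 0.0568, adjusted p = 0.00156), and Eef1a1, the elongation factor with 40.4% shared words, at 4114, 4424, 4281 and 4638 TPM in XX and 8517, 8659, 8403 and 7931 TPM in XO (log2 change 0.94 ± 0.0621, adjusted p = 2.1e-06). In both all XO libraries exceeded all 26 paired-read libraries. Eef2 changed by 0.27 ± 0.0646 (adjusted p = 0.00682), and Dppa5a, a naive RNA-binding protein with 38.6% shared words, by 0.31 ± 0.0939 (adjusted p = 0.0217), the latter lost without either XX wild type library or XCastO129 2 (0.25 to 0.29). Against the 20 deletion libraries they stood at -0.11 and -0.06. On the side of the falls Rps21 changed by -0.27 ± 0.0743 (adjusted p = 0.0148) and lay below all 26. Rplp1, with 60% shared words, changed by -0.27 ± 0.0972 (adjusted p = 0.043), lost without either XX wild type library, either XX Rnf12+/- library, either XCastO129 library or X129OCast 1 (-0.3 to -0.19), and the ribosome scaffold Rack1 by -0.2 ± 0.0642 (adjusted p = 0.0299), lost without XX wild type 2, XX Rnf12+/- 2 or either X129OCast library (-0.2 to -0.17).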

How the data were processed

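The 8 libraries compared are stranded mRNA-seq of mESCs. The authors deposited raw counts per gene in total and allele-resolved columns. Per the submitters' processing notes, Trim Galore 0.6.7, HISAT2 2.2.1, SAMtools 1.10 and HTSeq 0.12.4 were used, with build mm10. Positions and exon lengths came from GENCODE M21 (55240 of 55421 genes matched). All 30 libraries were mapped to groups by their labels. Depth ranged from 14998265 to 20914826 counts per library in the 8 compared.

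Genes that reached 10 counts in 4 or more of the 8 libraries were tested in edgeR 4.0.16 (R 4.3.3) by the quasi-likelihood test of 4 XO against 4 XX libraries, with TMM factors from autosomal genes outside the segments set apart and Benjamini-Hochberg adjustment over 16451 genes at 0.05. Log2 changes are XO minus XX ± SE, and DESeq2 1.42.0 was an alternative. The scripts were tested on simulated data. Shared sequence is the percent of a gene's 50-base exonic words that occur in another annotated gene. Python 3.11.15 wrote the tables.

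Named genes comprised the 12 largest called rises and falls among protein-coding genes with a mean of at least 5 TPM and no overlap between groups. From each list, whatever the gene type, came up to 4 called members a direction and the 2 most abundant not called members. Further protein-coding genes were the 5 most abundant called a direction, up to 3 a direction on each segment, and Pou5f1, Nanog and Esrrb. The members, lists and tests were chosen with earlier results of these data known. Genes named outside this rule were chosen after their values were seen. Alternatives covered normalisation, filters, reference libraries, each XO genotype alone, a term per genotype, shared sequence and each library left out. Some named members are not reported here, while list counts include every tested member.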

Additional observations from a re-analysis of the deposited data

Results flagged for a closer look

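Within a group of 4 libraries, a library that stands far from the other 3 is expected by chance in about 1 of 20 groups (5%). The named genes include 171 called ones, each with an XX and an XO group, so several such libraries are expected by chance alone. They are listed without a test. The values below are in TPM. In XCastO129 1 these were Dynlt1c at 16.7, Mkrn3 at 4.04, Eno3 at 69.8, Hand1 at 9.12 and Rps21 at 1690.1. In XCastO129 2 they were Dppa4 at 307, Plagl1 at 6.96, Impact at 176, Pim1 at 131, Zfp352 at 1.58, Shmt2 at 249, Lss at 38.7, Rybp at 62.6 and Rpl4 at 4701. Of the 14 such XO values, all came from XCastO129.

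In XX Rnf12+/- 1 the library stood apart for Lef1 at 16.4, Socs3 at 62.7 and Fdps at 7.48, and in XX Rnf12+/- 2 for Magel2 at 1.45, Ctsl at 121 and Alox15 at 1.66. In XX wild type 1 it did so for Rps12-ps3 at 0.311 and Ndufc2 at 239.7.

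The lines differed from each other, with 2 libraries each, in 6 named genes by edgeR's quasi-likelihood test. X129OCast was above XCastO129 on the log2 scale for Utf1 by 0.48 (adjusted p = 0.0466), Dnmt3b by 0.66 (adjusted p = 0.0408) and Snrpn by 0.76 (adjusted p = 0.0173). It stood at -0.61 for Nanog, -1.1 for Lama1 and -1.06 for Tfap2c against XCastO129 (adjusted p = 0.046 in each).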

How the results depend on the processing

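Of the 14923 autosomal genes, 3152 were called higher and 3166 lower. With RLE factors the counts were 3180 and 3151, with TMM factors from all genes 3276 and 3076, and with DESeq2 3421 and 3426. The counts moved by over 1.5 times, or the genes were restricted, in these settings: 2087 and 2091 with XX Rnf12+/- as the reference, 1873 and 1787 for XCastO129 alone, 980 and 1226 beyond 2-fold, 1620 and 1993 with under 5% shared words, and 1153 and 799 for genes also outside all 26 paired-read libraries. Leaving out 1 library gave 2556 to 3162 higher and 2496 to 3266 lower. The cause of these differences was not tested. Of the named genes called against the XX or against the 20 deletion libraries, 8 differed in sign between these references: Hells at 0.05, Jade1 at 0.65, Tcf7 at -0.39, Col4a1 at 0.49, Slc2a1 at -0.37, Ndufa7 at -0.06, Dppa5a at -0.06 and Eef2 at -0.11. The differences between replicates 1 and 2 correlated at 0.65 between the XX genotypes, 0.102 between the XO genotypes and -0.249 to -0.168 across XX and XO, so the number was not taken to pair XO with XX libraries. With the replicate number as a block (replicate block) 3067 were higher and 3006 lower.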
